A study of Mus musculus with 18 samples.

Results

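The libraries labelled intermediate progenitors (IP) from control cultures of embryonic mouse neocortex were compared with those of radial glia (RG) and of neurons (N) from the same kind of culture, and genes were sought that were higher in IP than in both (IP peaks) or lower than in both (IP dips). These are 9 of the 18 libraries of the study, 3 per population. Of 55416 genes counted, 29355 had enough reads to be tested, 26061 were not tested, and 1064 were called as IP peaks and 133 as IP dips. Radial glia are the stem cells that line the ventricle of the cortical wall. Intermediate progenitors descend from them, leave the ventricular surface, switch on the T-box factor Eomes and usually divide to give neurons. The neurons born early settle in the preplate and the deep layers, where they use factors such as Tbr1, Bcl11b, Fezf2 and Sox5, and Cajal-Retzius cells at the surface secrete reelin.

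Every group came from E14.5 neocortex of wild-type C57BL/6J mice, as hemispheres kept for 24 h in HERO culture, which is a culture under rotation. The groups used here were Ctl_IP, Ctl_RG and Ctl_N, which received no additive, and as a second set of libraries Epi_IP, Epi_RG and Epi_N, which received human recombinant EPIREGULIN, an EGF family ligand, at 50 ng/mL. Each group held 3 biological replicates per the labels, and the sources used here do not say how the populations were separated. RNA was sequenced from SmartSeq2 libraries, which copy full-length transcripts without keeping the strand. Control libraries held 15.5 to 34.2 M counted reads, and mitochondrially encoded transcripts took 4.91 to 9.30% of reads in IP, 3.14 to 5.06% in RG and 5.57 to 8.83% in N. The first principal component of 11210 well-measured genes carried 84.6% of the variance and set RG apart from the other populations. On it control RG lay at 94.3 to 99.1, while IP (-50.1 to -44.3) and N (-53.3 to -45.3) overlapped. The next, with 8.55%, set control IP (-27.3 to -25.3) apart from N (22.0 to 35.2). In bulk RNA, a different share of cells of a type and a different amount of RNA per cell cannot be told apart.

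The label of the IP libraries held for Eomes and not for the marker list as a whole. Eomes, which defines intermediate progenitors, lies on chromosome 9 (GRCm39 118307280 to 118315200) and had 132, 149 and 85.8 CPM (counts scaled to a common library total) in IP, against 20.2, 13.9 and 18.2 CPM in RG and 6.45, 10.3 and 13.3 CPM in N. All 3 IP libraries stood above all 6 others, and Eomes was higher by a log2 fold change of 2.80 ± 0.28 (SE) against RG and 3.60 ± 0.30 against N, with an adjusted p for a peak of 5.74e-07 by edgeR. Of 20 intermediate progenitor markers, 14 were higher in IP than in RG and 8 higher than in N, while 5 were lower than in N, and 3 were called as peaks (Eomes, Kif26b and Mfng). The summed level of the list was 1922 to 2078 CPM in IP, 712 to 835 CPM in RG and 2428 to 2958 CPM in N, so the N libraries had the highest levels. Pan-neuronal genes summed to 18041 to 19830 CPM in IP, 1590 to 1660 CPM in RG and 15465 to 16553 CPM in N, and here the IP libraries had the highest. In what follows IP, RG and N are the labels of the libraries.

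Windows upstream of the start are shown for Eomes, the marker that defines the population, and for Rgs4, a leading peak gene whose window held motif matches. Rgs4 was chosen for these matches. The window of Hs3st4, a peak gene ranked above Rgs4, held no match to any of the letters searched and is not shown. They are 250 bases long on GRCm38.p6, from RefSeq, and read 5′ to 3′ on the strand of the gene, Eomes at chr9:118477939-118478188 on the plus strand and Rgs4 at chr1:169747643-169747892 on the minus strand. Capitals mark a match to the E-box letters CAGATG or to the octamer ATGCAAAT, on either strand, which in Rgs4 read as their reverse complements.
Eomes: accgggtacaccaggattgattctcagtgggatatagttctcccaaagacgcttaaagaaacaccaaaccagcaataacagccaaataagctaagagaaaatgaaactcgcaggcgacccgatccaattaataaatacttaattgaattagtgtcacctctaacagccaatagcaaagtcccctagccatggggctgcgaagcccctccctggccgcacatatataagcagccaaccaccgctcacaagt
Rgs4: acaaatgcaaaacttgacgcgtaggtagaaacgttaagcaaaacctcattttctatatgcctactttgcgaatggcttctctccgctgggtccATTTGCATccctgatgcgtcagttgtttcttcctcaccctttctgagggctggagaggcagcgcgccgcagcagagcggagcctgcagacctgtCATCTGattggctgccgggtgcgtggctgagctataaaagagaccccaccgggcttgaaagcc
Windows of this length were found by symbol for 690 of 1063 peak symbols (1001 windows), 84 of 133 dip symbols (114 windows) and 16357 of 29154 tested symbols (20464 windows). CAGATG was present in 10.8% of peak windows, 9.65% of dip windows and 12.2% of all tested windows. CAGCTG was present in 16.4% of peak windows, 11.4% of dip windows and 12.9% of all tested windows. The T-box core AGGTGTG was present in 5.09% of peak windows, 1.75% of dip windows and 4.50% of all tested windows, and the octamer in 1.20% of peak windows, 2.63% of dip windows and 1.40% of all tested windows. These letters are a description of the windows, and no site or use of one follows from a match.

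More genes were called as peaks than as dips in IP, by a margin that moved with the scaling and the filter. A gene was called when edgeR found it higher than RG and higher than N, or lower than both, taking the larger p of the 2 contrasts and adjusting it over all tested genes to 0.05. Peaks were 3.62% and dips 0.453% of the genes tested. Of the 1064 peaks, 699 were more than 2-fold above both populations and 251 more than 4-fold, and the median of the smaller log2 fold change was 1.33. Of the 133 dips, 40 were more than 2-fold below both and 2 more than 4-fold, with a median of -0.79. All 3 IP libraries lay above all 6 others in 1051 peaks and below them in 133 dips, and without regard to a test this held for 2086 genes (7.11%) above and 915 (3.12%) below. With the replicate number as a block, since libraries of the same number deviated together, 1516 peaks and 354 dips were called, and these included all 1064 and all 133. Upper-quartile factors gave 893 peaks and 243 dips, and genes of mean log2 CPM 3 or more gave 669 and 223.

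Set against the mean of RG and N on the log scale, 4934 genes (16.8%) were higher in IP and 3024 (10.3%) lower. Of those higher, 1007 (20.4%) had an IP level between RG and N, and 2863 were above both by estimate without being called as peaks. Of those lower, 1096 (36.2%) lay between RG and N and 1795 were below both without being called as dips. The comparison with the mean alone thus held many genes that ran in steps through the populations. In single contrasts, 6666 genes (22.7%) were higher and 5456 (18.6%) lower in IP than in RG, and 2273 (7.74%) were higher and 762 (2.6%) lower in IP than in N. With upper-quartile scaling the higher share of the genes called against the mean was 50.9%, against 62.0% with TMM scaling, and the median log2 difference of all genes from RG was -0.18 in place of -0.06.

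**Figure D1:**
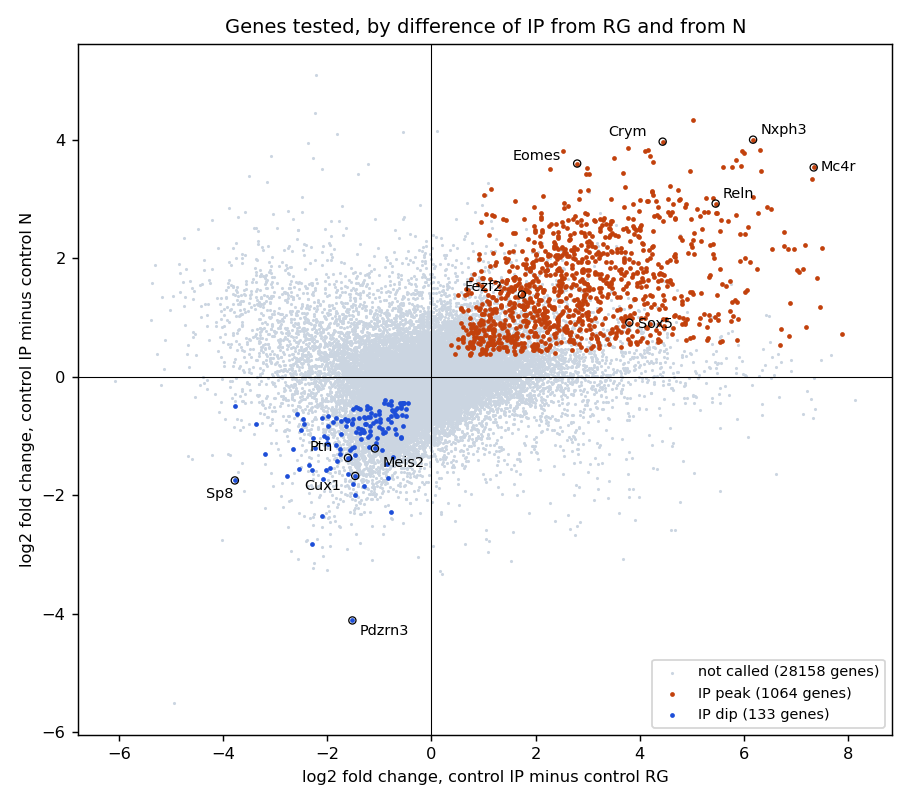
Log2 fold change of each tested gene, control IP minus RG on the x axis and control IP minus N on the y axis, with 1064 peaks in orange, 133 dips in blue and other genes in grey; a few named genes are circled. Peaks fill the upper right and reach further from 0 than the dips in the lower left.

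Most peaks were higher in N than in RG. Over all genes, 6168 (21%) were higher and 5197 (17.7%) lower in N than in RG. Among peaks, 675 (63.4%) were higher in N than in RG, 352 (33.1%) were not called either way and 37 (3.48%) were lower in N. Among dips, 60 (45.1%) were lower in N than in RG, 65 (48.9%) were not called and 8 were higher in N. Protein-coding genes made up 80.3% of peaks, 73.7% of dips and 61.4% of all tested genes. Protein-coding peak genes had a median span of 66.3 kb on the genome and dip genes a median of 51.9 kb, against 22.3 kb for all protein-coding genes tested and 27.9 kb for those higher in IP than in RG but not called as peaks. Their exons summed to medians of 7364.5 bases in peaks, 7427 bases in dips and 5619 bases in all protein-coding genes tested. Gene length was not a term in the fit, and its part in the calls was not tested.

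N replicate 3 stood apart from the other N libraries in many of these genes. It had the lowest of the 3 N values in 770 peaks (72.4%), against 36.9% of all tested genes, and the highest in 86 dips (64.7%), against 32.0% of all tested genes. The median log2 ratio of the IP mean to a N library, over peaks, was 1.23 for N replicate 1, 1.25 for N replicate 2 and 1.62 for N replicate 3, values that the choice of peaks bears on. Without N replicate 3, 794 peaks and 82 dips were called. The part of this library in single results was not tested.

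Only called genes with an ordinary symbol (not a Gm, Rik or clone name) were ranked. They also needed a mean log2 CPM of 1 or more and no overlap of libraries. Of the 759 peaks that remained, the largest by the smaller of the log2 fold changes were Nxph3, Crym, Hs3st4 and Pde1a. Over all peaks the largest such value was 4.34. Nxph3, which encodes a secreted ligand of alpha-neurexins (chromosome 11, GRCm39 95400671 to 95405396), had 17.0, 15.4 and 29.8 CPM in IP, 0.244, 0.614 and 0.123 CPM in RG and 2.15, 0.832 and 0.864 CPM in N. Its lowest IP value was far above its highest value elsewhere, and the log2 fold change was 6.17 ± 0.49 against RG and 4.01 ± 0.41 against N (adjusted p = 7.86e-07 by edgeR). Crym, for a protein that binds thyroid hormone, had 11.5, 21.0 and 16.9 CPM in IP, 1.29, 0.279 and 0.49 CPM in RG and 1.26, 0.998 and 0.864 CPM in N. RG and N overlapped in Crym, and IP was higher by 4.44 ± 0.37 and 3.97 ± 0.36 on the log2 scale (adjusted p = 1.96e-07 by edgeR). Pde1a, a phosphodiesterase that calcium and calmodulin activate, had 19.0, 21.8 and 23.3 CPM in IP, 1.63, 0.614 and 1.04 CPM in RG and 2.38, 1.33 and 1.08 CPM in N. It followed the same course, with log2 fold changes of 4.20 ± 0.29 and 3.73 ± 0.29 (adjusted p = 2.32e-08 by edgeR).

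Enzymes that add 3-O-sulfate to heparan sulfate, the sugar chain that holds growth factors at the cell surface, were among the largest peaks. Hs3st4 (chromosome 7, GRCm39 123582092 to 123998212) had 89.6, 126 and 121 CPM in IP, 1.24, 1.17 and 1.78 CPM in RG and 11.7, 9.09 and 3.03 CPM in N. The groups did not overlap, RG was the lowest, and the differences from IP were 6.30 ± 0.40 and 3.83 ± 0.34 (adjusted p = 1.29e-07 by edgeR). Hs3st3b1 had 14.8, 18.1 and 25.9 CPM in IP, 0.901, 1.01 and 1.16 CPM in RG and 1.68, 2.22 and 0.908 CPM in N. IP stood apart while RG and N overlapped, at 4.26 ± 0.38 and 3.63 ± 0.37 (adjusted p = 7.52e-07 by edgeR). Hs3st2 was a peak too, at 14.2, 12.3 and 14.6 CPM in IP, 0.365, 0.168 and 0.123 CPM in RG and 2.90, 2.33 and 0.951 CPM in N. Of 20 tested heparan sulfate enzymes 4 were peaks and none a dip, and the fourth, Hs3st5, lost its call in 8 of 17 alternative settings. With the replicate block 6 were peaks. All genes tested gave 3.62% peaks and 0.453% dips, and the block raised their peaks from 1064 to 1516. The list summed to 724 to 807 CPM in IP, 460 to 563 CPM in RG and 744 to 765 CPM in N.

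The 15 largest ranked peaks also held 4 receptor genes and a regulator of G proteins. Mc4r, the melanocortin receptor known from appetite control, had 27.2, 25.5 and 44.4 CPM in IP, 0.171, 0.112 and 0.276 CPM in RG and 4.53, 2.99 and 0.908 CPM in N. It was lowest in RG, with log2 fold changes of 7.34 ± 0.50 and 3.54 ± 0.38 (adjusted p = 1.24e-06 by edgeR). Rgs4, which shortens signalling through G proteins, had 30.7, 34.7 and 34.2 CPM in IP, 0.658, 0.391 and 0.582 CPM in RG and 4.25, 2.61 and 0.994 CPM in N. The IP libraries were close to each other, and the differences were 5.86 ± 0.44 and 3.67 ± 0.38 (adjusted p = 7.86e-07 by edgeR). Grik3, a kainate receptor subunit, had 152, 120 and 175 CPM in IP, 2.56, 1.40 and 1.41 CPM in RG and 20.1, 15.6 and 4.41 CPM in N. Its groups were fully apart in the order IP, N, RG. Grm3, a metabotropic glutamate receptor, had 11, 14.4 and 13.7 CPM in IP, 1.05, 0.670 and 1.13 CPM in RG and 2.2, 1.33 and 0.692 CPM in N. Ngfr, the p75 neurotrophin receptor, had 9.45, 10.4 and 16.3 CPM in IP, 0.463, 0.614 and 0.460 CPM in RG and 1.73, 0.887 and 1.21 CPM in N. In both genes IP alone was high, and the smaller log2 fold changes were 3.21 and 3.23.

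The others of the 15 differed more in level than in pattern. Nin, for the centrosome protein ninein that anchors microtubules, had the highest level, at 432, 378 and 349 CPM in IP, 22.1, 18.9 and 20.4 CPM in RG and 63.4, 56.8 and 13.2 CPM in N. N replicate 3 lay below the RG libraries here, and IP was higher by 4.24 ± 0.36 and 3.12 ± 0.34 (adjusted p = 1.63e-06 by edgeR). Igfbp3, which binds insulin-like growth factors, had 72.7, 103 and 99.0 CPM in IP, 2.31, 2.79 and 3.65 CPM in RG and 8.88, 10.7 and 5.27 CPM in N. Brinp1 had 46.5 to 60.2 CPM in IP, 0.838 to 1.10 CPM in RG and 1.86 to 6.68 CPM in N. Both kept the order IP, N, RG without overlap. Galnt14, which starts O-linked sugar chains, had 39.9 to 47.4 CPM in IP, 1.51 to 3.36 CPM in RG and 1.51 to 7.10 CPM in N, and the chemokine Cxcl14 had 12.4 to 17.9 CPM in IP, 1.23 to 1.51 CPM in RG and 0.519 to 2.06 CPM in N. In 10 of the 15 genes N was called higher than RG, in the other 5 neither way, and N replicate 3 was the lowest N library in 13.

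**Figure D2:**
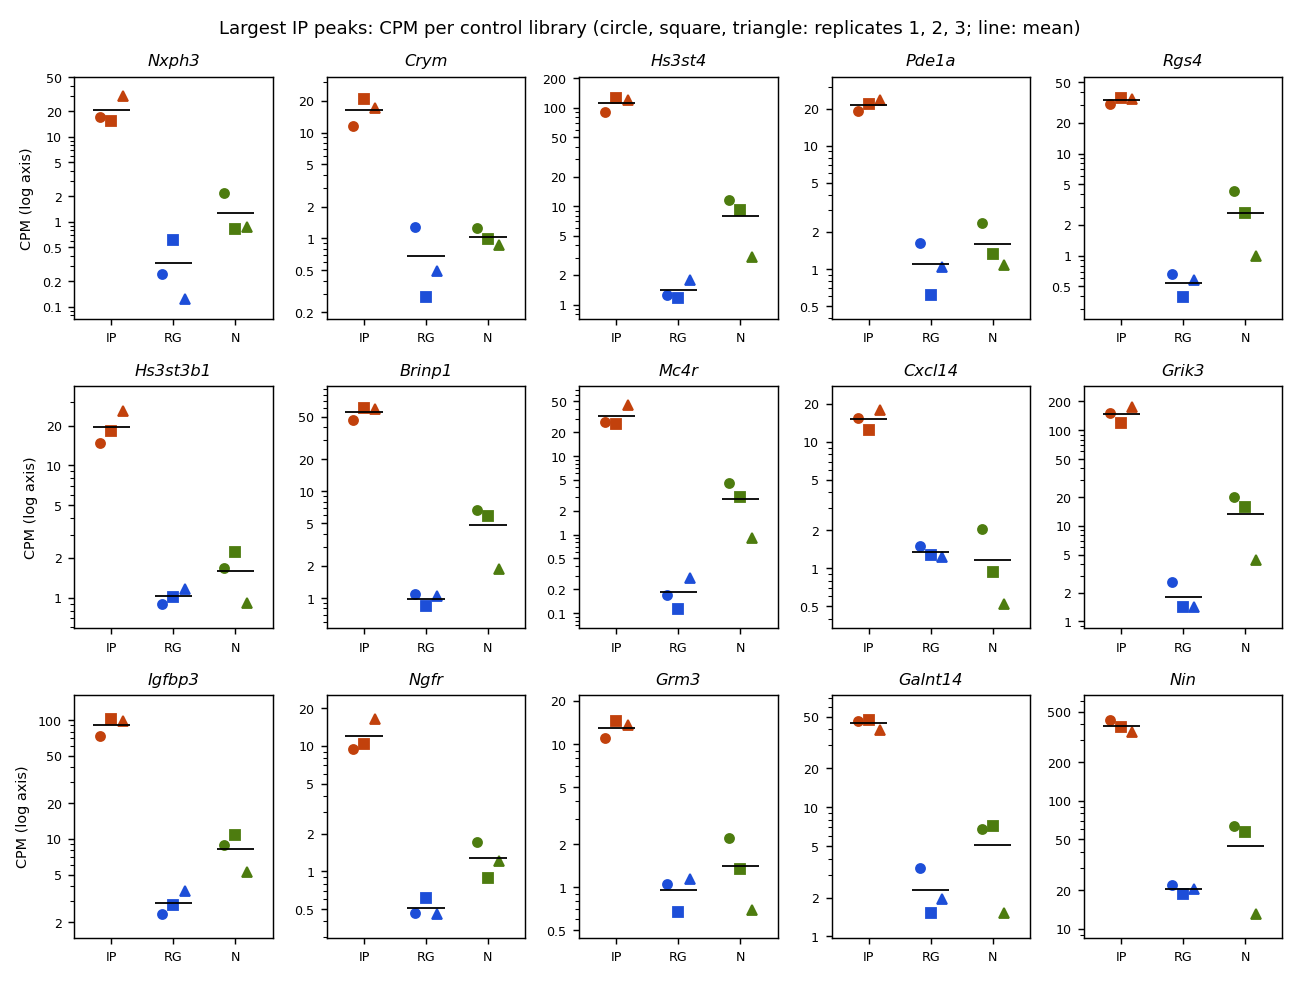
CPM per control library on log axes for the 15 largest ranked IP peaks. IP, RG and N run from left to right, with marker shapes for replicates 1 to 3 and lines for means. Every IP library stands above every RG and N library, which the ranking required. The N triangle, replicate 3, is the lowest N value in 13 of 15 genes.

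Genes of deep-layer neurons were mostly higher in IP than in both other populations. Of 19 genes known from deep-layer and corticofugal neurons, 13 were peaks and none a dip, beside 3.62% and 0.453% of all genes tested. The medians of the list were 3.80 against RG and 1.93 against N on the log2 scale, beside -0.06 and -0.03 over all genes tested. The summed level was 4107 to 4202 CPM in IP, 356 to 370 CPM in RG and 2023 to 2510 CPM in N. Fezf2, a zinc finger factor of subcerebral neurons that progenitors express as well, had 318, 268 and 346 CPM in IP, 93.7, 91.2 and 94.5 CPM in RG and 126, 123 and 106 CPM in N. IP was apart from both, at 1.74 ± 0.14 and 1.39 ± 0.14 (adjusted p = 7.65e-07 by edgeR). Sox5 had 1067, 1044 and 1009 CPM in IP, 74.5, 76.3 and 73.5 CPM in RG and 649, 540 and 464 CPM in N, and was higher in IP by 3.80 ± 0.14 and 0.92 ± 0.12 (adjusted p = 2.66e-05 by edgeR). Zfpm2 had 35, 40.4 and 54.2 CPM in IP, 7.77, 7.49 and 6.84 CPM in RG and 4.86, 6.49 and 5.62 CPM in N, so that N was not above RG. Syt6, Ntsr1, Tle4, Ldb2, Rprm, Nfe2l3 and Tcerg1l were also peaks, as were Nxph3, Crym and Hs3st4 above.

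Tbr1 and Bcl11b, which define early corticofugal neurons, did not pass as peaks. Tbr1 had 291, 346 and 416 CPM in IP, 1.46, 2.29 and 1.59 CPM in RG and 251, 271 and 290 CPM in N. The lowest IP value was just above the highest N value, and the difference from N was 0.38 ± 0.16 (adjusted p for a peak 0.37 by edgeR). Bcl11b had 1765, 1713 and 1531 CPM in IP, 48.2, 31.9 and 26.9 CPM in RG and 1244, 1056 and 954 CPM in N. It missed the threshold narrowly, at 0.62 ± 0.18 against N (adjusted p = 0.0555 by edgeR), and passed it with the replicate block (adjusted p = 0.000301). Neurod1 and Neurod2, basic helix-loop-helix factors of differentiating neurons, were higher in N: Neurod1 had 93.2, 101 and 133 CPM in IP, 1.75, 1.68 and 1.41 CPM in RG and 183, 222 and 256 CPM in N. Neurod2 had 1375 to 1714 CPM in IP, 8.34 to 14.0 CPM in RG and 2119 to 2573 CPM in N. Thus early neuron factors did not all follow the peak genes.

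Cajal-Retzius genes had the highest share of peaks of any list, 9 of 12, with none a dip, beside 3.62% and 0.453% of all genes tested. Their medians were 3.47 against RG and 2.2 against N, and their summed level was 343 to 436 CPM in IP, 18.1 to 22.6 CPM in RG and 54.6 to 90.3 CPM in N. Reln, for the secreted protein reelin that guides the layering of neurons, had 199, 215 and 241 CPM in IP, 5.68, 4.41 and 4.69 CPM in RG and 27.1, 40.6 and 18.7 CPM in N. The groups were fully apart, at 5.46 ± 0.25 and 2.93 ± 0.22 (adjusted p = 1.92e-08 by edgeR). Trp73, a p53 family factor used by Cajal-Retzius cells, had 21.3, 15.5 and 23.9 CPM in IP, 0.512, 0.614 and 0.950 CPM in RG and 3.60, 2.88 and 1.82 CPM in N. Lhx5 and Lhx1, LIM homeodomain factors, were peaks as well. Lhx5 averaged 9.47 CPM in IP, 0.500 CPM in RG and 1.21 CPM in N. Lhx1 averaged 12.2 CPM in IP, 0.732 CPM in RG and 2.12 CPM in N, and 37.9% of the exon bases of Lhx1 overlap another gene, whose reads an unstranded library cannot tell apart. Ebf2, Ebf3, Ndnf, Nhlh2 and Cacna2d2 were peaks, and Calb2, Car10 and Barhl2 were not called, with smaller log2 fold changes of 0.83, 0.81 and 0.73.

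Subplate genes, which mark the earliest neurons below the cortical plate, were peaks in 7 of 19 and dips in none, beside 3.62% and 0.453% of all genes tested. Besides Pde1a the largest was Abca8a, with 10.4, 10.5 and 15.7 CPM in IP, 1.83, 2.12 and 1.20 CPM in RG and 1.68, 1.33 and 1.12 CPM in N. The dopamine receptor gene Drd1 had 9.41, 10.6 and 16.5 CPM in IP, 1.66, 0.782 and 0.736 CPM in RG and 2.90, 2.49 and 1.43 CPM in N. Nr4a2, an orphan nuclear receptor, averaged 85.7 CPM in IP, 42.5 CPM in RG and 10.2 CPM in N, so that RG was its second highest population. Tmem163, Tshz2 and St18 were the other peaks, and Nxph4, Nos1 and Ccn2 were among those not called. Of the 19 genes, 10 were higher and 4 lower in IP than in RG, and 9 were higher and none lower than in N. The summed list overlapped in no library, with 383 to 450 CPM in IP, 242 to 267 CPM in RG and 286 to 338 CPM in N.

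Upper-layer genes had more dips than peaks. Of 16 genes known from upper-layer and callosal neurons, 5 were dips (Cux1, Ptn, Pou3f3, Pou3f2 and Lhx2) and 2 were peaks (Plxnd1 and Rorb). All genes tested gave 0.453% dips and 3.62% peaks. Cux1, Ptn, Pou3f3 and Pou3f2 were dips in all 18 alternative settings. The list summed to 1565 to 1686 CPM in IP, 1853 to 2212 CPM in RG and 3466 to 3842 CPM in N, and its median was 1.63 against RG, with 11 members higher and 5 lower, and -1.32 against N, with 3 higher and 11 lower. Cux1, a homeodomain factor of upper-layer neurons and their progenitors (chromosome 5, GRCm39 136276989 to 136596344), had 101, 71.0 and 80.0 CPM in IP, 229, 233 and 234 CPM in RG and 264, 237 and 305 CPM in N. IP was low while RG and N were close, at -1.46 ± 0.15 and -1.67 ± 0.15 (adjusted p = 7.27e-07 by edgeR). Pou3f3 had 186, 198 and 191 CPM in IP, 292, 389 and 357 CPM in RG and 457, 542 and 587 CPM in N, and its relative Pou3f2 had 97.1, 98.0 and 65.8 CPM in IP, 166, 163 and 137 CPM in RG and 266, 276 and 311 CPM in N. Both POU factors were lowest in IP and highest in N without overlap, with log2 differences of -0.85 and -0.84 from RG and -1.47 and -1.71 from N. Rorb, a nuclear receptor of layer 4 neurons, was a peak, with 69.5, 78.4 and 75.2 CPM in IP, 15.8, 20.4 and 13.8 CPM in RG and 40.7, 35.2 and 24.2 CPM in N.

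**Figure D3:**
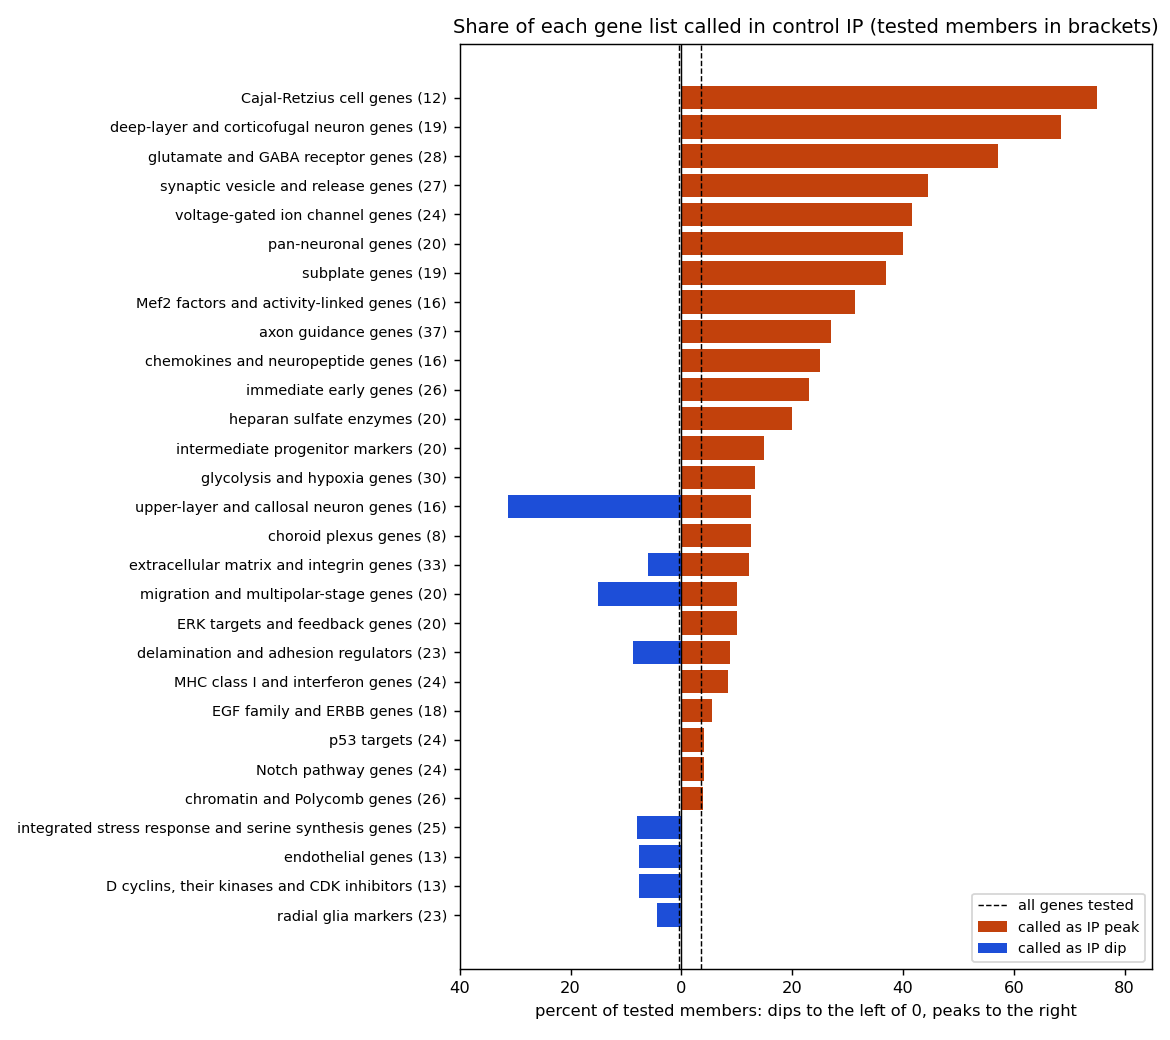
Percent of the tested members of each gene list called as IP peak, to the right of 0, or as IP dip, to the left; tested members are in brackets and dashed lines give the percents over all genes, 3.62 and 0.453. Cajal-Retzius, deep-layer and receptor lists reach furthest to the right and the upper-layer list furthest to the left, and lists with no call are left out.

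Sp8 and Pdzrn3 were among the largest of the 99 dips left for ranking by the same rule. Over all dips the largest of the smaller log2 fold changes was -2.30. Sp8, a zinc finger factor of patterning and of some interneurons (chromosome 12, GRCm39 118810064 to 118816311), had 1.08, 1.98 and 1.89 CPM in IP, 16.9, 24.3 and 25.9 CPM in RG and 3.23, 4.77 and 8.38 CPM in N. RG was the highest and IP the lowest, at -3.77 ± 0.32 and -1.75 ± 0.32 (adjusted p = 0.00101 by edgeR). Pdzrn3, a ubiquitin ligase with PDZ domains (chromosome 6, GRCm39 101126570 to 101354858), had 7.66, 5.95 and 7.84 CPM in IP, 17.7, 25.1 and 19.4 CPM in RG and 112, 109 and 153 CPM in N. Here N was the highest, and the log2 fold change of IP was -1.52 ± 0.18 against RG and -4.11 ± 0.19 against N (adjusted p = 3.97e-06 by edgeR). Ptn, for the secreted growth factor pleiotrophin, had 217, 233 and 227 CPM in IP, 611, 755 and 690 CPM in RG and 526, 631 and 591 CPM in N. RG and N overlapped, and IP was apart at -1.60 ± 0.12 and -1.37 ± 0.12 (adjusted p = 1.65e-07 by edgeR).

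Pantr1, a long noncoding RNA transcribed beside Pou3f3, had 76.4, 90.6 and 74.7 CPM in IP, 279, 333 and 370 CPM in RG and 188, 231 and 295 CPM in N. IP was apart from both at -2.03 ± 0.16 and -1.56 ± 0.16 (adjusted p = 6.58e-07 by edgeR), with 25.1% of its exon bases shared with another gene. Meis2, a homeodomain factor, had 387, 371 and 359 CPM in IP, 784, 850 and 736 CPM in RG and 811, 834 and 940 CPM in N. Adamts1, an extracellular protease, had 5.54, 5.49 and 10.6 CPM in IP, 17.7, 23.9 and 19.4 CPM in RG and 24.3, 26.4 and 36.8 CPM in N. IP libraries were the lowest in each of these genes. Rlbp1, which binds retinaldehyde, was highest in RG and had 9.85, 9.59 and 10.5 CPM in IP, 40.8, 48.5 and 52.6 CPM in RG and 19.3, 18.8 and 30.7 CPM in N. Slc7a2, a transporter of cationic amino acids, followed the same pattern, with 9.65 to 11 CPM in IP, 35.5 to 47.6 CPM in RG and 19.1 to 29.5 CPM in N.

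Tmtc2, Zhx1, Garem2, Mir99ahg and Pde5a were also among the 15. Their smaller log2 differences lay between -1.03 for Pde5a and -1.42 for Tmtc2, and Garem2 shares 44.8% of its exon bases with another gene. In 8 of the 15 dips N and RG were not called different, in 6 N was lower than RG, and in Pdzrn3 alone N was higher. N replicate 3 was the highest N library in 13 of them.

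**Figure D4:**
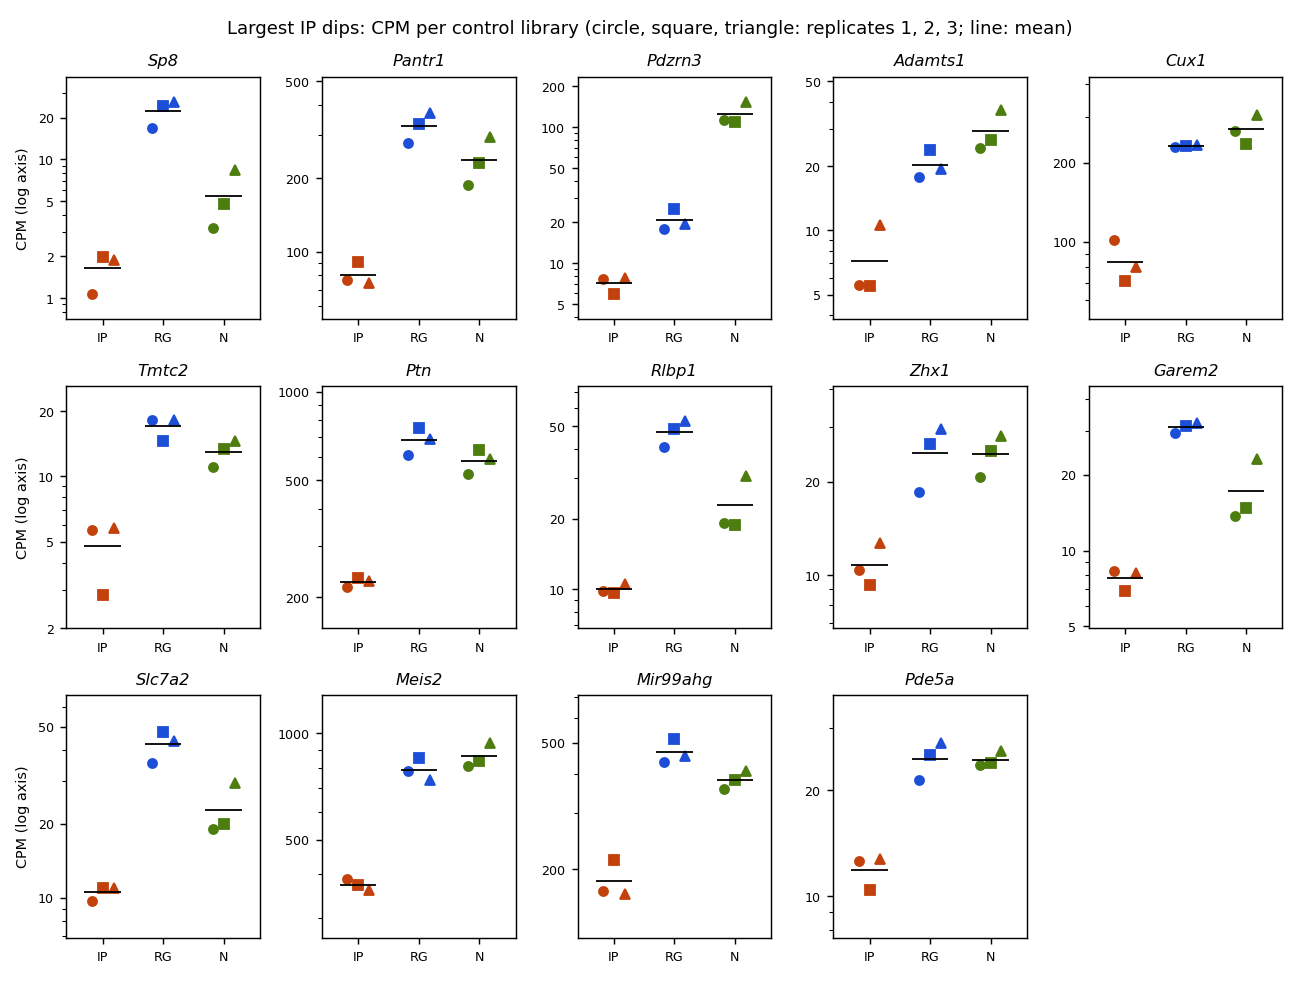
CPM per control library on log axes for 14 of the 15 largest ranked IP dips. IP, RG and N run from left to right, with marker shapes for replicates 1 to 3 and lines for means. Every IP library stands below every RG and N library in each panel, which the ranking required. RG is the highest in Sp8 and N the highest in Pdzrn3.

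Genes of synapses and excitability were peaks in large shares, and their summed levels did not all follow. All genes tested gave 3.62% peaks and 0.453% dips, and the replicate block raised their peaks from 1064 to 1516. Of 28 glutamate and GABA receptor genes 16 were peaks (19 with the replicate block) and none a dip, and 18 were higher in IP than in N while 1 was lower. Grm5 had 74.7, 99.5 and 73.3 CPM in IP, 2.07, 2.57 and 2.05 CPM in RG and 14.9, 15.4 and 5.71 CPM in N. Grm7 had 4.19, 7.28 and 5.48 CPM in IP, 0.950, 0.447 and 0.981 CPM in RG and 0.888, 0.832 and 0.821 CPM in N. These metabotropic receptors were thus low in both other populations, yet the summed receptor list was 3938 to 4204 CPM in IP, 1037 to 1189 CPM in RG and 4757 to 5737 CPM in N, highest in N. Of 24 voltage-gated channel genes 10 were peaks, led by the calcium channel subunit Cacna1e with 269, 255 and 257 CPM in IP, 10.8, 11.1 and 8.83 CPM in RG and 56.0, 43.4 and 23.3 CPM in N. Of 27 genes of synaptic vesicles and release 12 were peaks (16 with the block), among them Sv2b with 20.1, 29.4 and 31.4 CPM in IP, 1.46, 1.45 and 1.16 CPM in RG and 4.86, 2.11 and 3.33 CPM in N. All 27 were higher in IP than in RG, 14 were higher than in N and 1 lower.

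Of 20 pan-neuronal genes 8 were peaks, and 12 with the replicate block. Among all genes tested 1064 (3.62%) were peaks, and 1516 with the block. Mapt, for the microtubule protein tau, had 1700, 1882 and 1952 CPM in IP, 67.0, 56.8 and 46.7 CPM in RG and 786, 783 and 529 CPM in N. IP was apart from both, at 5.02 ± 0.18 and 1.40 ± 0.16 (adjusted p = 2.60e-06 by edgeR). Tubb3, a neuronal tubulin, was not a peak, with 1912, 1970 and 2502 CPM in IP, 76.8, 92.1 and 125 CPM in RG and 1674, 2120 and 2234 CPM in N, where IP and N overlapped. Of 16 Mef2 factors and genes linked to neuronal activity 5 were peaks. Mef2c had 412, 476 and 445 CPM in IP, 46.1, 46.6 and 42.5 CPM in RG and 116, 120 and 45.3 CPM in N, with N replicate 3 at the level of RG, and IP was higher by 3.30 ± 0.25 and 2.25 ± 0.24 (adjusted p = 1.07e-06 by edgeR). Camk2b, a calcium-dependent kinase subunit, had 474, 398 and 420 CPM in IP, 3.34, 2.96 and 2.64 CPM in RG and 113, 120 and 43.8 CPM in N.

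Several other lists also held peaks, and over all genes tested 3.62% were peaks and 0.453% dips. With the replicate block the peaks over all genes rose from 1064 to 1516 and the dips from 133 to 354. Of 26 immediate early genes, which respond quickly to stimulation, 6 were peaks (Fosl2, Plk2, Nr4a3, Klf6, Homer1 and Ier5), and 1 was a dip with the replicate block. In IP 11 were higher and 11 lower than in RG, and 8 were higher and 1 lower than in N. Fosl2 had 39.7, 80.6 and 68.6 CPM in IP. It had 7.5, 8.04 and 10.2 CPM in RG and 9.72, 10.8 and 9.64 CPM in N. Of 37 axon guidance genes 10 were peaks and none a dip (12 and 3 with the block), with Ephb1 at 215, 211 and 223 CPM in IP, 26.2, 21.8 and 40.9 CPM in RG and 46.6, 39.4 and 24.0 CPM in N, and 10 others were lower in IP than in N. Of 16 chemokine and neuropeptide genes 4 were peaks, 6 with the block, and Cck had 21.9, 39.0 and 35.1 CPM in IP, 0.317, 0.279 and 0.153 CPM in RG and 6.22, 11.6 and 3.89 CPM in N. Pdyn, another of them, lost its call in 10 of 17 settings. Of 30 glycolysis and hypoxia genes 4 were peaks (Ndrg1, Pfkp, Hk1 and Eno2), while 23 of the 30 were lower in IP than in RG and 23 higher than in N, so most members ran in steps. The list of extracellular matrix and integrin genes, which also held Brinp1, had 33 tested members. Of these 4 were peaks (Brinp1, Spock1, Vcan and Tnr) and 2 dips (Adamts1 and Itga6), the dips becoming 4 with the block. In IP 9 of the 33 were higher and 16 lower than in RG, and 7 were higher and 2 lower than in N. Of 20 ERK target and feedback genes 2 were peaks. In IP 5 of the 20 were higher and 9 lower than in RG, and 7 were higher and 1 lower than in N. Dusp6, a phosphatase of ERK and 1 of the peaks, had 37.7, 53.1 and 48.2 CPM in IP. It had 6.77, 7.26 and 7.75 CPM in RG and 11.7, 13.9 and 6.05 CPM in N. Of its exon bases 23.0% are overlapped by another gene.

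Most other intermediate progenitor markers were not called. Mfng, which modifies Notch with sugar, had 73.0, 40.0 and 39.6 CPM in IP, 24.3, 15.3 and 24.9 CPM in RG and 19.2, 23.5 and 28.7 CPM in N, with an adjusted p of 0.00997 by edgeR that became 0.12 without IP replicate 1 and 0.07 without N replicate 1. Kif26b, a kinesin relative, had 13.2, 15.6 and 9.51 CPM in IP, 2.10, 2.51 and 1.38 CPM in RG and 3.65, 4.77 and 3.20 CPM in N. In neither gene did an IP library overlap one of RG or N. Neurog2, the proneural factor upstream of Eomes, had 84.0, 93.4 and 65.7 CPM in IP, 62.1, 69.5 and 74.0 CPM in RG and 42.4, 53.6 and 57.8 CPM in N, and was not a peak (adjusted p = 0.883 by edgeR). Insm1, a zinc finger factor of delamination, had 76.3, 117 and 86.0 CPM in IP, 30.3, 31.7 and 34.7 CPM in RG and 212, 275 and 336 CPM in N, and so stood between them. Hes6 and Dll1 had smaller log2 fold changes of 0.29 and 0.22 and were not called, and Btg2 was highest in RG.

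Genes of division were lower in IP than in RG and mostly higher than in N. All 30 mitosis genes and all 30 S phase genes were lower in IP than in RG, 27 and 21 of them were higher than in N, and none was a peak or dip. Mitosis genes summed to 355 to 596 CPM in IP, 4578 to 5343 CPM in RG and 183 to 207 CPM in N. Mki67, a protein of dividing cells, had 57.8, 69.8 and 25.5 CPM in IP, 524, 545 and 501 CPM in RG and 8.04, 8.87 and 9.77 CPM in N. Radial glia markers summed to 945 to 1019 CPM in IP, 7453 to 8921 CPM in RG and 628 to 670 CPM in N, all 23 were lower in IP than in RG, and Id4, an inhibitor of helix-loop-helix factors, was their single dip, a call that was lost in 11 of 18 settings. Ccnd2, a D-type cyclin, had 493, 623 and 650 CPM in IP, 1905, 1820 and 2233 CPM in RG and 634, 777 and 1115 CPM in N; it was not called (adjusted p = 0.169 by edgeR) but was a dip with the replicate block (adjusted p = 0.00371).

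Genes of migration and the multipolar stage, in which new neurons leave the progenitor zone, gave 3 dips (Pdzrn3, Pcdh18 and Cdkn1b) and 2 peaks (Neurod4 and Rbms1) among 20, and 14 of the 20 were lower in IP than in N. All genes tested gave 133 dips (0.453%) and 1064 peaks (3.62%), and 354 dips and 1516 peaks with the replicate block. Pcdh18, a protocadherin, had 7.5, 6.95 and 6.90 CPM in IP, 11.6, 11.9 and 12.9 CPM in RG and 30.8, 30.0 and 43.1 CPM in N. Cdkn1b, an inhibitor of cyclin-dependent kinases, had 44.1, 58.7 and 48.3 CPM in IP. It had 70.7, 84.5 and 72.4 CPM in RG and 94.5, 105 and 107 CPM in N. It was the single dip among 13 genes of D cyclins, their kinases and their inhibitors (3 dips and 1 peak with the replicate block). Pcdh18 and Cdkn1b were both lowest in every IP library. The Cdkn1b call was lost without IP replicate 1 (adjusted p = 0.0626 by edgeR) and without RG replicate 2 (adjusted p = 0.067 by edgeR), and that of Pcdh18 with limma voom (adjusted p = 0.0535). Of 23 adhesion regulators 2 were peaks (4 with the block), the cadherins Cdh13 and Cdh11, and 2 dips, the protocadherins Pcdh18 and Pcdh10. Cdh13 had 934, 1141 and 951 CPM in IP, 6.33, 8.49 and 8.18 CPM in RG and 342, 305 and 236 CPM in N. Of 24 MHC class I and interferon genes 2 were peaks (Psmb8 and Tap1), and Tap1 lost its call in 8 of 17 settings. Single peaks stood in the lists of Notch (Mfng, of 24), p53 target (Plk2, of 24), EGF and ERBB (Nrg3, of 18) and chromatin genes (Smarca2, of 26). These were 3.85 to 5.56% of tested members, near the 3.62% over all genes, so they set no list apart. With the replicate block the Notch, p53 target and chromatin lists gave 1 dip each. Cholesterol synthesis, mitochondrially encoded, heat shock and histone genes gave no call (3 histone genes were dips with the block), although 21 of 25 cholesterol genes were higher in IP than in RG.

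The number of stress genes called moved the most with the replicate block. Of 25 genes of the integrated stress response and serine synthesis, the programme that Atf4 drives when amino acids run short, 2 were dips (Slc7a11 and Ddit3) without the block and 17 with it. Over all 29355 genes tested there were 133 dips (0.453%) without the block and 354 with it. Slc7a11 lost its call in 10 of 18 settings and Ddit3 in 2, and neither was called without N replicate 3. The list summed to 2100, 2449 and 3441 CPM in IP replicates 1 to 3, 3899, 4559 and 5403 CPM in RG and 3114, 3968 and 5296 CPM in N. Pooled over replicates IP and N overlapped, but within each replicate number IP was the lowest population. Ddit3, a factor of this programme, had 75.7, 59.5 and 99.1 CPM in IP, 190, 185 and 211 CPM in RG and 107, 132 and 198 CPM in N, and 82.4% of its exon bases overlap another gene. Atf4 averaged 296 CPM in IP, 421 CPM in RG and 443 CPM in N, and Asns, which makes asparagine, averaged 204 CPM in IP, 194 CPM in RG and 321 CPM in N. Of 20 aminoacyl-tRNA synthetase genes none was a dip without the block and 6 were with it. What separated the replicate numbers was not tested.

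Lists of cell types outside the cortical excitatory lineage, other than Cajal-Retzius cells, held few calls. They had 8 to 16 tested members each, and over all genes tested 3.62% were peaks and 0.453% dips. At these shares lists of this size hold few calls or none, so the counts say little about these cell types. Lists for interneurons, mural cells, microglia, meninges, erythroid cells and oligodendrocyte precursors gave no peak and no dip (2 interneuron genes were peaks with the replicate block), and the endothelial list gave 1 dip, Emcn, lost in 10 of 17 settings. Interneuron genes summed to 162, 163 and 301 CPM in IP, 175, 189 and 187 CPM in RG and 84.8, 252 and 23.7 CPM in N, so N replicates 2 and 3 differed by more than the populations did. Endothelial genes summed to 18.2 to 20.0 CPM in IP, 20.8 to 26.7 CPM in RG and 18.1 to 22.9 CPM in N. Choroid plexus genes summed to 108 to 142 CPM in IP, 11.3 to 31.4 CPM in RG and 45.9 to 61.4 CPM in N, and most of it in IP was Rspo3, a Wnt agonist also known from the cortical hem, with 97.9, 109 and 99.2 CPM in IP. The part of any other cell type in the peaks was not tested.

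The same contrasts were taken among the Epi libraries, which shared the filter, scaling and dispersion estimates of the fit with the control libraries. Without the Epi libraries in the fit, 855 peaks and 90 dips were called in control. In Epi cultures 1136 genes (3.87%) were peaks and 153 (0.521%) dips, the dips becoming 408 with the replicate block. Of these, 923 peaks were also control peaks, which is 81.2% of the Epi peaks and 86.7% of the control peaks. For dips, 97 were shared, 63.4% of the Epi dips and 72.9% of the control dips. No control peak was an Epi dip or the reverse, all 1064 control peaks lay above both other populations in Epi by estimate, and 132 of 133 control dips lay below. Of the 15 largest ranked peaks and the 15 largest ranked dips, all 30 were called in Epi as well. Eomes averaged 123 CPM in Epi IP, 18.6 CPM in Epi RG and 9.03 CPM in Epi N, and Cux1 averaged 80.0 CPM in Epi IP, 232 CPM in Epi RG and 268 CPM in Epi N.

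No gene was called for a difference between the Epi and the control contrast of IP against the mean of RG and N (0 genes, 0% of those tested, by edgeR, by DESeq2 and by limma voom). At an unadjusted p under 0.05 there were 451 genes by edgeR, or 1.54%. With no difference and uniform p-values a share near 0.05 would fall there. The share found was lower, so the test may have been cautious, and the reason was not tested. A p that misses the threshold does not show that the contrasts were equal. Summed marker levels were close in both treatments, for example 348 to 545 CPM of Cajal-Retzius genes in Epi IP and 343 to 436 CPM in Ctl IP.

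**Figure D5:**
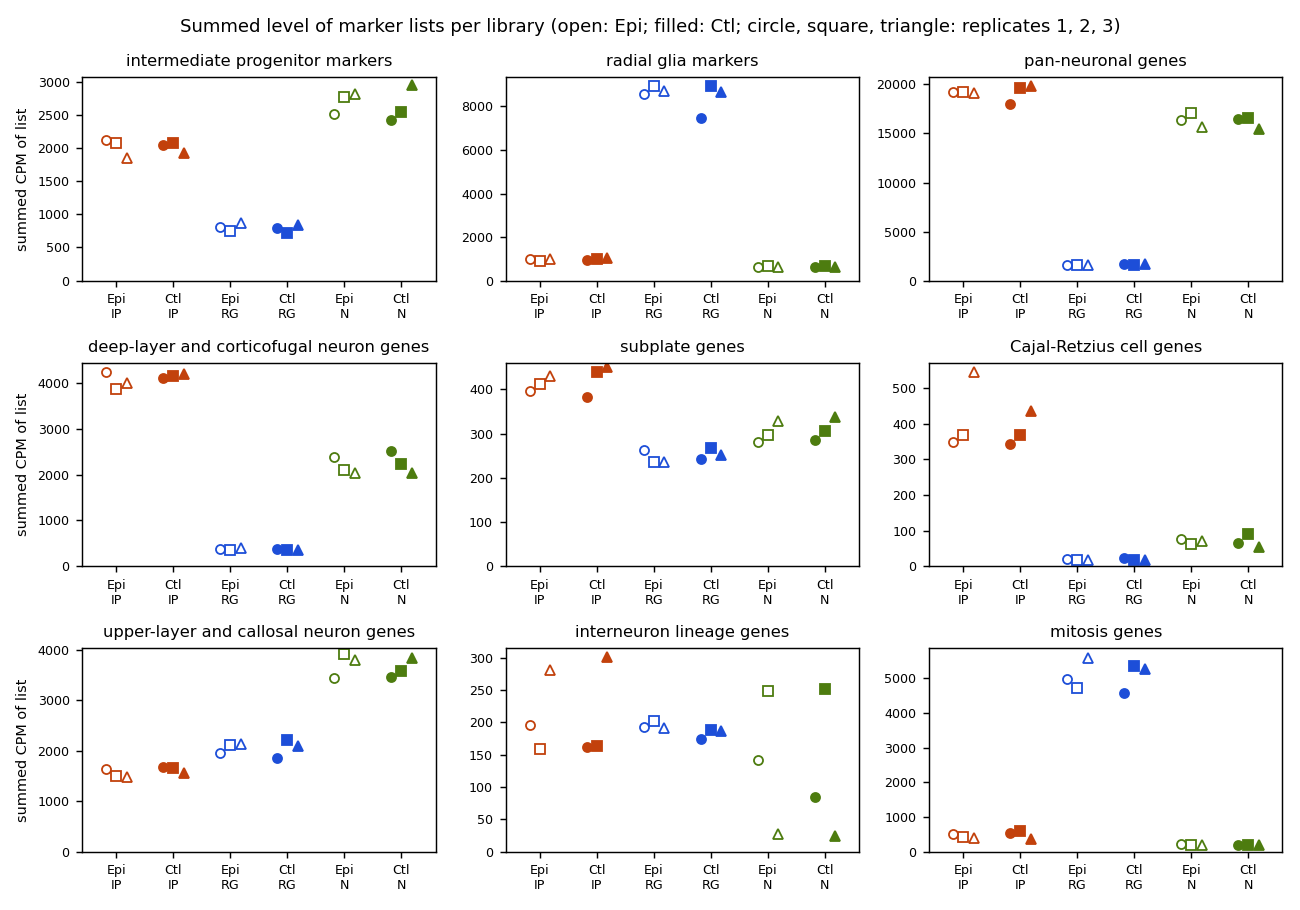
Summed CPM of 9 marker lists in each of 18 libraries, on linear axes from 0, with Epi (open) left of Ctl (filled) within IP, RG and N and marker shapes for replicates 1 to 3. The IP libraries have the highest pan-neuronal, deep-layer, subplate and Cajal-Retzius sums and the lowest upper-layer sums, and interneuron sums spread widely within N.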

How the data were processed

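The authors deposited 1 table of raw counts, the reads assigned to each gene in each library. The submitters' processing notes name bcl2fastq 2.20.0, cutadapt 2.6, featureCounts 2.0.1 and the build GRCm39, and an aligner is not given there. Per the labels' protocols, RNA was extracted with a kit for fixed tissue and sequenced after SmartSeq2, which has no molecular identifiers, so PCR copies count as reads. The sample tags were shifted by a field, and in the table the headings of strand and gene type stood on each other's column; both were read by their values.

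Counts were analysed in R 4.3.3 with edgeR 4.0.16: 92 spike-in rows were set aside, filterByExpr with 6 groups kept 29355 genes, and TMM factors scaled the libraries. One quasi-likelihood fit of all 18 libraries gave the contrasts. For a peak or dip the larger of the p-values against RG and N was taken where both differences had 1 sign, and was adjusted by Benjamini-Hochberg over all genes at 0.05. The method was tested on simulated data. CPM values use the TMM factors, and log2 fold changes are ± SE.

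The 15 genes named in each direction were called, had an ordinary symbol, averaged log2 CPM 1 or more without any overlap of libraries, and had the largest smaller log2 fold change. A panel of markers is given whatever its outcome, and 42 gene lists with 831 genes are described by counts, with up to 4 called examples per list and direction. One of the 15 dips is not reported here. Other listed members were named after their values were seen. The members, lists and panel were chosen with earlier results of these data known, so no list is independent support. Exon overlap comes from GENCODE vM39 on GRCm39.

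Libraries of the same replicate number deviated together across 11210 genes with a mean log2 CPM above 3. The same-number correlations were 0.281 to 0.632 for IP with RG and 0.175 to 0.562 for IP with N, and those of other numbers -0.51 to 0.117 and -0.43 to 0.0473. For RG with N they were 0.0946 to 0.604, and those of other numbers -0.575 to 0.0766. Replicate 2 gave the lowest same-number correlation in each pair of populations, and for RG with N it was close to the highest of other numbers. Fits with the number as a block are therefore given for most counts that they moved by over 1.5 times, and for some others. Results were recomputed with RLE factors, upper-quartile factors, no filter, only genes of mean log2 CPM 3 or more, the robust fit, DESeq2 1.42.0, limma 3.58.1 voom with quality weights, only the compared groups, each contrast adjusted on its own, both changes beyond 2-fold, the replicate block and leaving out each library. The difference between the Epi and control contrasts was added after seeing the data.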

Additional observations from a re-analysis of the deposited data

How the results depend on the processing

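The 30 genes largest in the ranking kept their call and direction under every alternative in which they were tested. No named peak or dip turned to the opposite direction. For named genes that were not called, a change of direction was not recorded. IP peaks numbered 699 when both changes had to be beyond 2-fold and 669 among genes of mean log2 CPM 3 or more. They numbered 794 to 1032 when a library was left out, with the fewest without N replicate 3. IP dips numbered 246 with each contrast adjusted on its own, 40 beyond 2-fold, 243 with upper-quartile factors, 223 at mean log2 CPM 3 or more and 354 with the replicate block. They numbered 82 without N replicate 3 and up to 130 without another library. Genes higher than the mean of RG and N numbered 3089 at mean log2 CPM 3 or more, and those called either way 6762 to 7757 when a library was left out. In Epi cultures, peaks numbered 736 beyond 2-fold and 735 at mean log2 CPM 3 or more, and dips 269 with each contrast adjusted on its own, 50 beyond 2-fold, 323 with upper-quartile factors, 255 at mean log2 CPM 3 or more, 288 with limma voom and 408 with the replicate block. At mean log2 CPM 3 or more 11698 genes were tested in place of 29355, and there peaks fell while dips rose. The cause of these changes was not tested. With the block, IP peaks numbered 1516, and among lists it gave, for example, 4 peaks of adhesion regulators, 3 dips each of D cyclin, histone and axon guidance genes, and 2 peaks of choroid plexus genes. The difference between treatments gave 0 calls under each alternative in which it was computed. It was not computed with only the compared groups, with each contrast adjusted on its own or with the 2-fold limit. The lists are small and the groups hold 3 libraries, so changes in weakly expressed genes may not be detectable at this depth.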
